A study of Mus musculus with 12 samples.

Results

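The 10 genes described here encode the ligands interleukin-1α (Il1a), interleukin-1β (Il1b), interleukin-6 (Il6), interleukin-11 (Il11), tumor necrosis factor (Tnf), oncostatin M (Osm) and leukemia inhibitory factor (Lif), the interleukin-1 receptor antagonist (Il1rn), and both interleukin-1 receptors (Il1r1 and Il1r2). They were taken by gene symbol, whatever their values, from the 23150 genes of the expression matrix, and each symbol was found once. Bulk RNA-seq was measured in 12 libraries from the ovaries of WT immature C57BL/6J mice that were superovulated with PMSG followed by hCG, with 3 libraries in each of 4 groups. Before hCG, 1 ovary of a mouse received 2 µg of recombinant mouse Sema3E in 10 µL of PBS with bovine serum albumin, and the ovary on the other side received the same mass and volume of mouse IgG. At 8 h post-hCG, granulosa cells (GCs) were released from the ovary by needle puncture, and what remained was collected as ovarian stromal tissue (OST), so the groups were GC Sema3E, GC IgG, OST Sema3E and OST IgG. The GCs or OST of 1 ovary were 1 library, and GC and OST libraries may share ovaries. Levels are TPM (transcripts scaled to 1 common total per library), which correct for gene length and can be compared between genes, but hold no record of sequencing depth.

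Interleukin-1α and interleukin-1β signal through Il1r1 with its coreceptor Il1rap, whereas Il1rn occupies Il1r1 without signaling and Il1r2 is a decoy that binds ligand. Interleukin-6, interleukin-11, oncostatin M and leukemia inhibitory factor share the signaling subunit gp130 (Il6st), each with a partner of its own, and activate STAT3, whereas TNF acts through Tnfrsf1a and Tnfrsf1b and, like interleukin-1, activates NF-kB. Ovulation has long been compared with an acute inflammation, in which leukocytes enter the ovary after the LH surge and cytokines act on follicle cells and stroma.

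The genes lie at several loci (GENCODE M21 gene models, GRCm38), and all are protein-coding. Il1b (chr2:129364570-129371139) and Il1a (chr2:129299610-129309972) were 54.6 kb apart on the minus strand of chromosome 2, which also carries Il1rn (chr2:24336853-24351494). Il1r2 (chr1:40074079-40125231) and Il1r1 (chr1:40225080-40317257) were 99.8 kb apart on chromosome 1, and Osm (chr11:4236420-4241026) and Lif (chr11:4257557-4272514) were 16.5 kb apart on chromosome 11. Il6 (chr5:30013114-30019981), Il11 (chr7:4772373-4782859) and Tnf (chr17:35199381-35202007) lie on chromosomes of their own. Il1b overlaps the antisense gene Il1bos, and Il1a, Il1r1 and Il1r2 also overlap noncoding gene models. No source used here states whether counting used the strand, so reads of such pairs cannot be told apart. Il1bos was listed between 0 and 0.719 TPM in the 12 libraries.

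The 250 bases before RefSeq transcription starts (GRCm38.p6) were matched by symbol for 9 of the 10 genes, with 13 starts in all, and not for Osm. They were searched on both strands for the NF-kB motif, AP-1 (TGANTCA), C/EBP (TTGCNNAA) and the cyclic AMP response element (TGACGTCA), and on the coding strand for the TATA box (TATAAA). Promoters of 5 genes are shown, written 5′ to 3′ on the strand of the gene and ending at the base before the start, because Il1b and Tnf were correlated across libraries and, when all 12 libraries were counted, so were Il6, Il11 and Lif. Capitals mark motif matches. For Il11, the start nearer to the coding exons is given.
Il1b, chr2:129371140-129371389, minus strand: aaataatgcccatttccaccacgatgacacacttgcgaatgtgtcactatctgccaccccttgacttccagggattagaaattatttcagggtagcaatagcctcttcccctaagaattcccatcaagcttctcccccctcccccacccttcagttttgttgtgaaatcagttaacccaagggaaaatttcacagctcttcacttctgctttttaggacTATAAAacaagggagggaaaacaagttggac
Tnf, chr17:35202008-35202257, minus strand: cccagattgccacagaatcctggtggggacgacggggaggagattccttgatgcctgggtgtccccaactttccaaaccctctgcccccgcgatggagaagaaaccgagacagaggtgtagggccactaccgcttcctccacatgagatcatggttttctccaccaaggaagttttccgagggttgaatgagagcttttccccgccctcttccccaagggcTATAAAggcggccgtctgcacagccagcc
Il6, chr5:30012864-30013113, plus strand: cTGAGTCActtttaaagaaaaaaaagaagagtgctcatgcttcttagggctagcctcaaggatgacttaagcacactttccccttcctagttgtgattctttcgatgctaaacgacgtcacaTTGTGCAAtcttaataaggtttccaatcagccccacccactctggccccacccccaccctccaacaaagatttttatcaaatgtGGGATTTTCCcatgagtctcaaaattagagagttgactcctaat
Il11, chr7:4778142-4778391, minus strand: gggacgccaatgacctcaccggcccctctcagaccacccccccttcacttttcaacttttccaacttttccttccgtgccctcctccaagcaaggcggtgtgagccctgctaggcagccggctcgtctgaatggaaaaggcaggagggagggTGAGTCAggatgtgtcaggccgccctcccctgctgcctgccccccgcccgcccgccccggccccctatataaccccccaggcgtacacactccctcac
Lif, chr11:4257318-4257567, plus strand: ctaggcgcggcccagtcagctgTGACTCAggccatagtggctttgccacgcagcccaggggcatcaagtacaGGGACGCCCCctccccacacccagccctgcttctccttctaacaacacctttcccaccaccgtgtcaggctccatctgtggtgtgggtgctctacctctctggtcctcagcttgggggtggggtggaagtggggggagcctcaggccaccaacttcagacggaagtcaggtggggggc
An AP-1 match was present at 5 of the 13 starts (in Il1a, Il1rn, Il6, Il11 and Lif), against 6.75% of all 32851 promoters of this length. NF-kB matches were found at 3 starts (in Il6, Lif and Il1r1), against 7.25% of all promoters, and in Lif the same bases matched on both strands. TATA boxes were found at 3 starts (in Il1a, Il1b and Tnf), against 7.59%, and each began between 32 and 29 bases before the start. C/EBP matches were found at 2 starts (in Il6 and Il1r1), against 9.56%, and the cyclic AMP response element at 0, against 1.55%. The matches of different motifs did not overlap. Il6 was the gene with AP-1, C/EBP and NF-kB matches together, the last of them 44 to 35 bases before the start.

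A pair of IgG libraries stood apart, and values without them are given beside the results on which they bear most. GC IgG replicate 1 had the highest level among the 12 libraries of 6 of the 10 genes (Il1a, Il1b, Il1rn, Il1r2, Tnf and Osm). Its summed TPM of 17 macrophage and monocyte markers was 3652, against 343 to 868 in GC Sema3E and 269 and 295 in the other GC IgG libraries. OST IgG replicate 3 had the lowest level of 5 genes (Il1b, Il1r1, Il1r2, Il6 and Lif). Its summed TPM of 8 cumulus and ovulatory markers was 5.88, against 164 to 303 in OST Sema3E and 201 and 211 in the other OST IgG libraries, and its 8 oocyte markers summed to 1152 TPM, against 241 to 389 TPM in OST Sema3E. Granulosa cell markers summed to between 6074 and 14117 TPM in all 12 libraries, OST included, so OST still held GCs, whereas endothelial markers summed to 276 to 461 TPM in OST and 12.3 to 36.4 TPM in GCs. In such bulk samples, fewer cells of a type and less RNA per cell cannot be told apart.

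**Figure D1:**
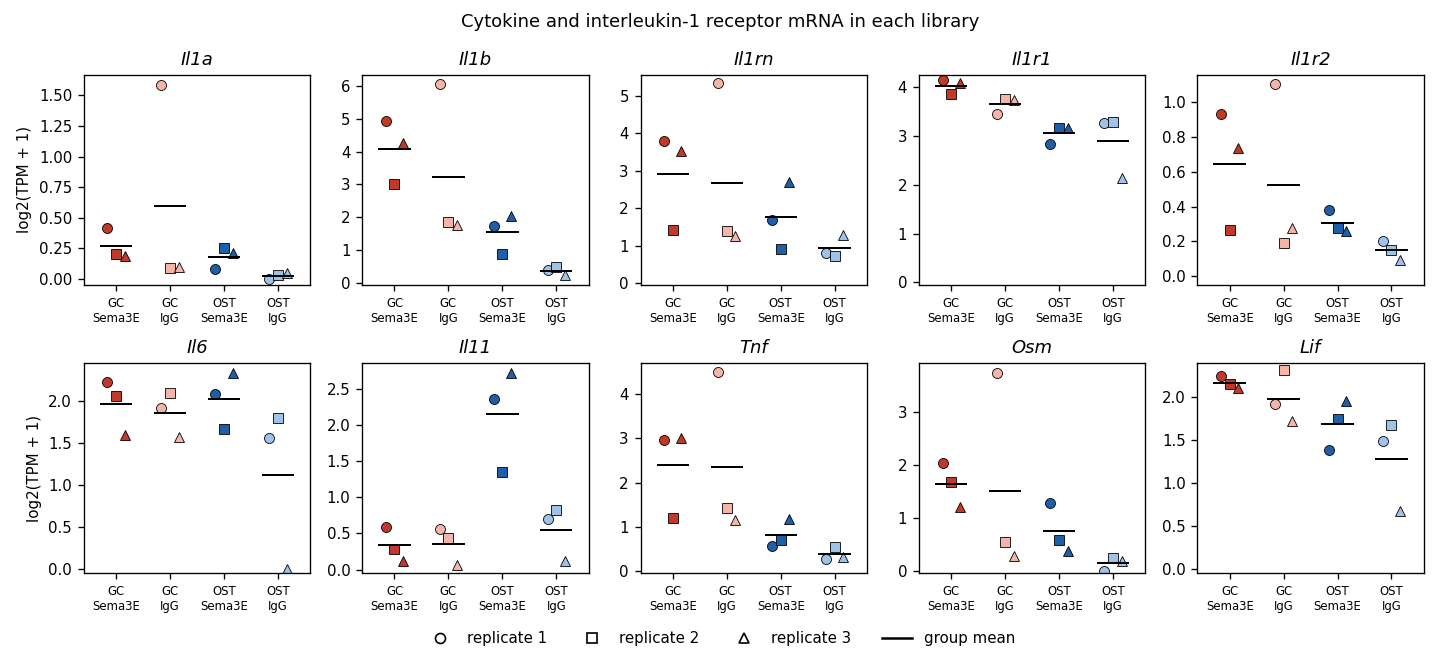
Levels of the 10 genes in each library, as log2(TPM + 1) on the y axis, in GC Sema3E, GC IgG, OST Sema3E and OST IgG on the x axis. Symbols give the replicate number and lines the mean of 3 libraries. GC IgG replicate 1 is the highest circle for Il1a, Il1b, Il1rn, Il1r2, Tnf and Osm, and Il11 is highest in the 3 OST Sema3E libraries.

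The first comparison was between Sema3E and IgG in OST. Il11 and Il1b had the largest differences among the 10 genes, both higher after Sema3E, and neither passed an adjusted p under 0.05. Il11, a gp130 cytokine known for its part in the decidua and in fibrosis, was at 4.13, 1.56 and 5.60 TPM in OST Sema3E, against 0.622, 0.768 and 0.0908 TPM in OST IgG. The lowest Sema3E library was above the highest IgG library. On the log2(TPM + 1) scale the difference was 1.60 (SE 0.39), with an unadjusted p of 0.00616 and an adjusted p of 0.332 (limma, Benjamini-Hochberg over 16273 genes). Means were 3.76 ± 2.05 TPM in OST Sema3E and 0.493 ± 0.356 TPM in OST IgG (SD, n = 3 each), and the scale understates such changes of low genes.

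Il1b, the main secreted interleukin-1 of myeloid cells, was at 2.36, 0.844 and 3.15 TPM in OST Sema3E, against 0.331, 0.398 and 0.193 TPM in OST IgG. The groups did not overlap, and each IgG library was below 1 TPM. The log2 difference was 1.18 (SE 0.32, unadjusted p 0.00992, adjusted p 0.332 by limma). Il1a, the membrane-associated and intracellular form, was at 0.0598, 0.189 and 0.160 TPM in OST Sema3E, against 0, 0.0194 and 0.0306 TPM in OST IgG. These groups did not overlap either, but Il1a was under 1 TPM in every OST library and was not tested.

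Tnf was at 0.472, 0.621 and 1.26 TPM in OST Sema3E, against 0.207, 0.460 and 0.242 TPM in OST IgG. Osm, made by neutrophils and macrophages, was at 1.41, 0.496 and 0.299 TPM in OST Sema3E, against 0, 0.175 and 0.138 TPM in OST IgG. Neither pair of groups overlapped, though 0.472 TPM of Tnf after Sema3E and 0.460 TPM after IgG were close. The log2 differences were 0.43 (SE 0.23, unadjusted p 0.111) for Tnf and 0.60 (SE 0.28, unadjusted p 0.0748) for Osm.

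Il6 was at 3.25, 2.19 and 4.05 TPM in OST Sema3E, against 1.94 and 2.49 TPM in OST IgG, where the third library was listed at 0. The groups overlapped, and the library listed at 0 was OST IgG replicate 3. Its log2 difference was 0.91 (SE 0.49, unadjusted p 0.113), and 0.35 (SE 0.22) without that library. Lif, a cytokine required for implantation, was at 1.59, 2.33 and 2.85 TPM in OST Sema3E, against 1.80, 2.19 and 0.594 TPM in OST IgG. Its groups overlapped as well, with a log2 difference of 0.41 (SE 0.31), and 0.11 (SE 0.20) without OST IgG replicate 3.

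Among the interleukin-1 antagonist and receptors, Il1rn was at 2.22, 0.869 and 5.51 TPM in OST Sema3E, against 0.743, 0.646 and 1.41 TPM in OST IgG. The groups overlapped, with a log2 difference of 0.84 (SE 0.46, unadjusted p 0.117). Il1r1 was at 6.16, 7.92 and 7.96 TPM in OST Sema3E, against 8.54, 8.67 and 3.40 TPM in OST IgG. Its log2 difference was 0.16 (SE 0.33) and turned to -0.21 (SE 0.13) without OST IgG replicate 3, so no direction can be given for it. Il1r2 was at 0.303, 0.211 and 0.199 TPM in OST Sema3E, against 0.149, 0.110 and 0.0682 TPM in OST IgG. It did not overlap between groups, but was under 1 TPM throughout and was not tested.

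In all, 8 of the 10 genes passed the filter in OST (a TPM over 1 in at least 1 library), and Il1b, Il11, Tnf and Osm passed it through Sema3E libraries alone, so a high level after Sema3E was a condition of their being tested, and the counts that follow only describe them. Of the 8, 0 passed an adjusted p under 0.05 by limma, and percent called over all 16273 genes was 0. At an unadjusted p under 0.05, 2 of the 8 passed, both higher (Il1b and Il11), against 14.9% of all genes, or 1.68% in that direction. Both also passed the cutoffs of the study (unadjusted p under 0.05 and a fold over 2), against 0.946% of all genes, or 0.387% in that direction. Among all 10 genes, 6 had 3 Sema3E libraries above the 3 IgG libraries (Il1a, Il1b, Il1r2, Il11, Tnf and Osm), as did 3.67% of the 16273 genes tested. That share leaves out genes under the filter, such as Il1a and Il1r2. Il1b, Il1rn and Il11 are among the genes that the study itself listed as changed in OST from the same libraries, so their direction is not independent evidence. Without the filter, all 10 genes had a positive log2 difference. The share of 28.9% positive is that of the 16273 genes that passed the filter, a different set, and the share without the filter is not given here. Without OST IgG replicate 3, 7 of the 8 tested genes had a positive log2 difference, as did 24.1% of all genes tested in that fit. There Il11 (1.39, SE 0.40, adjusted p 0.231 by limma) and Il1b (1.11, SE 0.36, adjusted p 0.232 by limma) stayed nearly as large. The median over the 8 genes was 0.72, against -0.18 over all genes, and scaling by median ratios moved both medians, to 0.82 and 0.02.

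The same comparison in GCs was dominated by GC IgG replicate 1. Il1b was at 29.7, 7.02 and 18.1 TPM in GC Sema3E, against 64.9, 2.65 and 2.41 TPM in GC IgG. The 3 Sema3E libraries thus lay between replicate 1 and the other IgG libraries. The log2 difference was 0.84 (SE 1.36, unadjusted p 0.563). Without GC IgG replicate 1 it was 2.25 (SE 0.55, unadjusted p 0.00836, adjusted p 0.384), a fit in which GC IgG has 2 libraries.

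Il1rn was at 12.8, 1.68 and 10.5 TPM in GC Sema3E, against 39.0, 1.63 and 1.40 TPM in GC IgG. Tnf was at 6.83, 1.304 and 7.03 TPM in GC Sema3E, against 21.5, 1.69 and 1.24 TPM in GC IgG. For both, replicate 2 of Sema3E was close to the lower IgG libraries, and the log2 differences were 0.25 (SE 1.37) for Il1rn and 0.03 (SE 1.09) for Tnf. Without GC IgG replicate 1 these were 1.58 (SE 0.73) and 1.10 (SE 0.59).

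Osm was at 3.09, 2.18 and 1.28 TPM in GC Sema3E, against 12.3, 0.445 and 0.202 TPM in GC IgG. Here the 3 Sema3E libraries were all above the lower IgG libraries, and the log2 difference was 0.12 (SE 1.02), or 1.23 (SE 0.28, unadjusted p 0.00572, adjusted p 0.378) without GC IgG replicate 1. Il1a, at 0.337, 0.154 and 0.137 TPM in GC Sema3E, against 2.01, 0.0659 and 0.0674 TPM in GC IgG, likewise had its Sema3E libraries between replicate 1 and the other IgG libraries. Il1r2 was at 0.907, 0.201 and 0.666 TPM in GC Sema3E, against 1.15, 0.140 and 0.209 TPM in GC IgG. Both passed the filter through GC IgG replicate 1 alone.

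The remaining genes were steadier in GCs. Il1r1, the signaling receptor, was at 16.7, 13.4 and 15.9 TPM in GC Sema3E, against 9.86, 12.5 and 12.2 TPM in GC IgG. It was the single gene of the 10 whose groups did not overlap, with a log2 difference of 0.38 (SE 0.14, unadjusted p 0.0283, adjusted p 0.936), or 0.28 (SE 0.11) without GC IgG replicate 1. Groups that did not overlap, with Sema3E higher, were found for 8.99% of all genes. Il6 was at 3.70, 3.16 and 2.03 TPM in GC Sema3E, against 2.79, 3.28 and 1.97 TPM in GC IgG, and Lif was at 3.72, 3.44 and 3.29 TPM, against 2.77, 3.95 and 2.27 TPM. Both overlapped, with log2 differences of 0.10 (SE 0.21) for Il6 and 0.19 (SE 0.17) for Lif. Il11 was at 0.511, 0.218 and 0.0903 TPM in GC Sema3E, against 0.482, 0.358 and 0.0444 TPM in GC IgG, and was not tested.

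Of the 9 genes tested in GCs, 0 passed an adjusted p under 0.05 by limma, against 0.0661% of 15128 genes, and 1 (Il1r1) passed an unadjusted p under 0.05, against 5.11%, or 4.03% with Sema3E higher. Of the 9, 8 had positive log2 differences, as did 65% of all genes. The cutoffs of the study were passed by 0 of the 9, against 0.555% of genes, and by 2 (Il1b and Osm) without GC IgG replicate 1. That library was singled out for its high levels of these same genes, so values without it are a description and no test. Without GC IgG replicate 2 instead, 4 of 9 log2 differences were positive, and without GC IgG replicate 3, 3 of 9. The median log2 difference over the 9 genes was 0.12, against 0.06 over all genes, and 1.10 over 7 genes tested without GC IgG replicate 1, against -0.02.

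**Figure D2:**
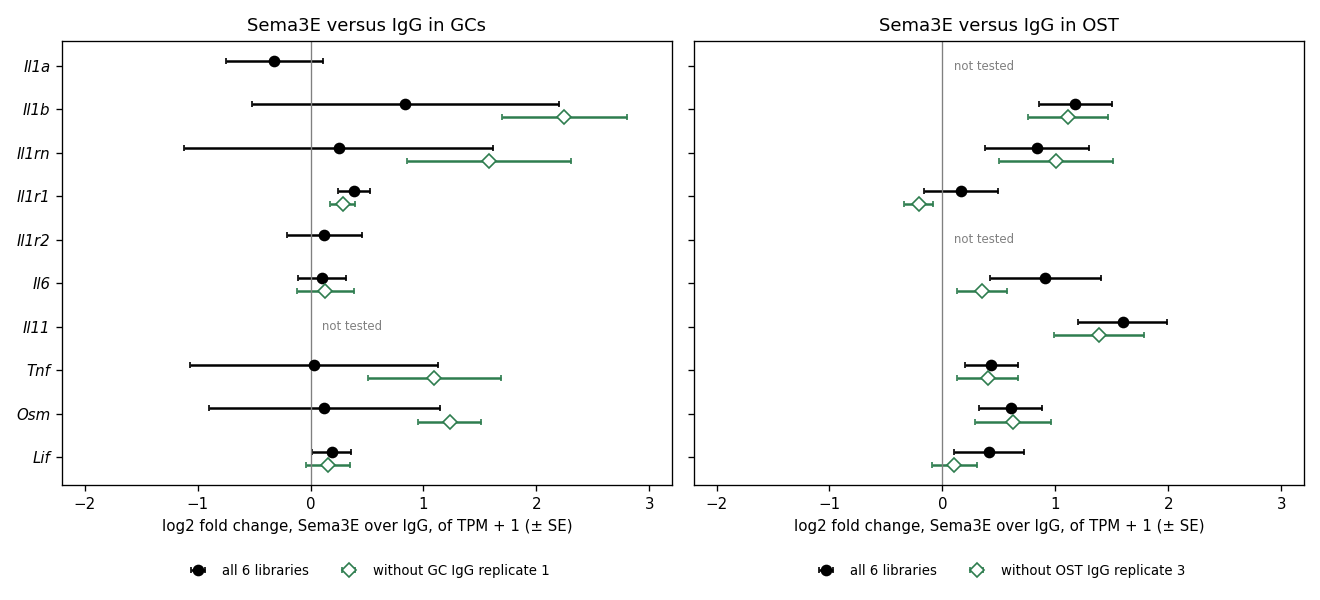
Log2 fold change of TPM + 1, Sema3E over IgG, with its SE, for each gene in GCs (left) and OST (right), in the fit of all 6 libraries of a tissue (black) and in the fit without the IgG library that stood apart (green). In GCs, Il1b was at 0.84 with all libraries and 2.25 without GC IgG replicate 1. In OST, Il11 and Il1b were at 1.60 and 1.18, and at 1.39 and 1.11 without OST IgG replicate 3.

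Whether the Sema3E difference itself differed between tissues was tested over all 12 libraries. Il11 had a difference of 1.62 on the log2 scale (OST minus GCs, SE 0.47), with an unadjusted p of 0.00549 and an adjusted p of 0.199 by limma. Il11 was over 1 TPM in the OST Sema3E libraries alone, so a high level there was a condition of its being tested. For the other 9 genes the unadjusted p was 0.189 or more. At an adjusted p under 0.05, 0 of the 10 genes and 0% of 16903 genes were called, and at an unadjusted p under 0.05, 1 of the 10 and 18.3% of genes were called. The result for Il1b was 0.34 (SE 1.36), and -1.13 without GC IgG replicate 1 and OST IgG replicate 3 together.

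The tissues were then compared after the same injection. After Sema3E, OST had less Il1b (2.12 ± 1.17 TPM) than GCs (18.3 ± 11.3 TPM, SD, n = 3 each), and the log2 difference, OST minus GCs, was -2.50 (SE 0.52, adjusted p 0.00912 by limma). Tnf (-1.58, SE 0.49, adjusted p 0.0381), Il1r1 (-0.97, SE 0.13, adjusted p 0.00135) and Lif (-0.48, SE 0.16, adjusted p 0.0441) were lower in OST as well. Il11 had the opposite order, at 3.76 ± 2.05 TPM in OST Sema3E and 0.273 ± 0.216 TPM in GC Sema3E, with a log2 difference of 1.81 (SE 0.35, adjusted p 0.00685). It passed the filter through OST libraries alone. A high level in OST was thus a condition of its being tested, and its place in the counts below only describes it. Osm (-0.89, adjusted p 0.0504), Il1rn (-1.15, adjusted p 0.229) and Il6 (0.07, adjusted p 0.825) did not pass. Thus 5 of 8 genes tested were called, against 45.2% of all genes, with 1 higher in OST (28.2% of all genes) and 4 lower (17% of all genes). In a fit over all 12 libraries, 2 were called. Red blood cell markers summed to 66475 to 157628 TPM in GC Sema3E, against 3999 to 6369 TPM in OST Sema3E. Neutrophil markers had a median log2 difference of -1.19 (4 of 12 tested positive), against 0.05 over all genes. That of macrophage and monocyte markers was -0.67 (5 of 16 tested positive). The part of blood and leukocytes in these tissue differences was not tested.

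After IgG, 9 genes were tested and all 9 had negative log2 differences (OST minus GCs), whereas 76.6% of all genes had positive ones. Of the 9, 0 passed an adjusted p under 0.05 by limma, against 8.64% of genes. Il1a, Il1b, Il1r2, Tnf and Osm were under 1 TPM in every OST IgG library and passed the filter through GC IgG alone. A high level in GCs was a condition of their being tested, so the counts of this comparison only describe them. With no filter on low TPM, 1 of the 10 genes had a positive log2 difference. At an unadjusted p under 0.05, 1 of the 9 passed (Il1b, -2.84, SE 1.11, unadjusted p 0.0388, adjusted p 0.148), against 29.7%. Il1b was at 0.331, 0.398 and 0.193 TPM in OST IgG, against 64.9, 2.65 and 2.41 TPM in GC IgG, without overlap. Without GC IgG replicate 1, Il1b passed (-1.44, adjusted p 0.0295), and without OST IgG replicate 3 in addition 2 genes passed. Red blood cell markers summed to 45460 to 196498 TPM in GC IgG, against 2612 to 6330 TPM in OST IgG.

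The order of levels also differed between groups. In OST Sema3E, Il1r1 was highest (7.34 ± 1.03 TPM) without overlap with Il11, which was next, and Il11, Il6, Il1rn, Lif, Il1b, Tnf and Osm followed with ranges that overlapped from each to the next. In OST IgG, Il1r1 (6.87 ± 3.01 TPM) was again highest without overlap with the next gene, Lif (1.53 ± 0.833 TPM), and Il1b was sixth (0.307 ± 0.105 TPM). In GC Sema3E, Il1b and Il1r1 (15.3 ± 1.72 TPM) led with overlapping ranges, and Il11 and Il1a (0.210 ± 0.111 TPM) were lowest, also overlapping. In GC IgG, Il1b, Il1rn and Il1r1 led, and the ranges of all neighbours overlapped.

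The antagonist and its ligand kept a narrower ratio than either level in GCs and in OST Sema3E, but not in OST IgG. Il1rn over Il1b, as a ratio of TPM, was 0.432, 0.240 and 0.578 in GC Sema3E, against 0.602, 0.616 and 0.581 in GC IgG, although the level of Il1b among the GC IgG libraries ran between 2.41 and 64.9 TPM. The ratios in GCs did not overlap between treatments, though 0.578 after Sema3E and 0.581 after IgG were close. The antagonist was below its ligand in every GC library. In OST the ratio was 0.942, 1.03 and 1.75 after Sema3E, against 2.24, 1.62 and 7.29 after IgG, so it overlapped between treatments and was higher than in GCs in all 6 libraries. The ratios after IgG divide by low levels, as Il1b was between 0.193 and 0.398 TPM in OST IgG.

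With all 12 libraries counted, the 10 genes were grouped into 2 sets, described here after their values were seen. Levels were taken as log2(TPM + 1) minus the mean of the tissue, so the points share treatment and the libraries that stood apart. Il1a, Il1b, Il1rn, Il1r2, Tnf and Osm had Pearson r between 0.751 and 0.957 in their 15 pairs, and between 0.465 and 0.938 without GC IgG replicate 1 and OST IgG replicate 3. Il1r1, Il6, Il11 and Lif had r between 0.292 and 0.867 in 6 pairs, but between -0.363 and 0.804 without both libraries, so this set rested largely on those libraries. Between the sets r was between -0.275 and 0.501 in 24 pairs, and between 0.109 and 0.648 without both libraries. The median r without both was 0.437 between the sets and 0.38 within the second set. The second set was then no more alike within itself than with the first.

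**Figure D3:**
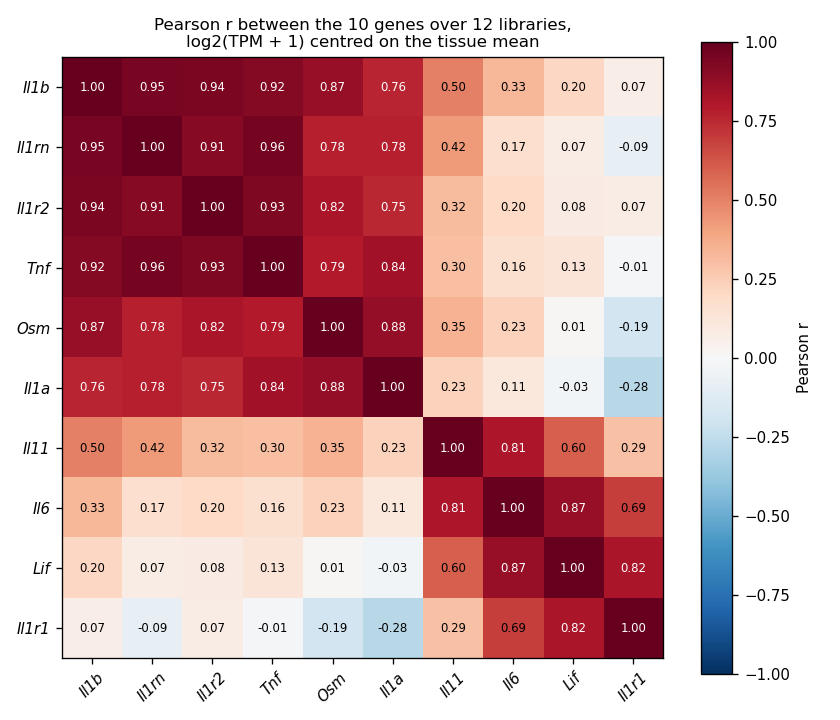
Pearson r between each pair of the 10 genes over 12 libraries, from log2(TPM + 1) centred on the mean of the tissue, as colour and number. Il1b, Il1rn, Il1r2, Tnf, Osm and Il1a form a block with r of 0.751 or more, and Il6 and Lif, with r of 0.867, lie in the other.

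The genes most like each of the 10, by the same r over 12 libraries, are given as a description. For Il1b these were Selplg (0.984), the P-selectin ligand of leukocytes, Csf3r (0.981), the receptor for granulocyte colony-stimulating factor, and Cd300lf (0.980), an inhibitory receptor of myeloid cells. Il1rn was followed by Cd300lf (0.982), Ptafr (0.974), the receptor for platelet-activating factor, and Fcgr4 (0.972), an Fc receptor. Tnf was closest to Ebi3 (0.990), Clec4a1 (0.987) and Ccdc88b (0.985), and Osm to Trem1 (0.974), an activating receptor of neutrophils and monocytes, Crip1 (0.946) and Arg1 (0.944). Those of Osm were 0.928, 0.841 and 0.851 without both libraries that stood apart.

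The other genes had other neighbours. Il11 was closest to Has1 (0.926), a hyaluronan synthase, Rdh10 (0.892), which makes retinaldehyde, and Igfbp3 (0.887), a binding protein for insulin-like growth factors, and these were 0.900, 0.841 and 0.843 without both libraries that stood apart. Il6 had Il33 (0.963) and Tnc (0.953) among its closest genes, of which the first was 0.826 without them. Lif was closest to Steap2 (0.948), Loxl2 (0.940) and Fgfr1 (0.940), and Il1r1 to Ncs1 (0.977), Tle3 (0.976) and Usp43 (0.975). Without both libraries these were 0.873, 0.823 and 0.85 for Lif, and 0.898, 0.918 and 0.889 for Il1r1. Il1a and Il1r2 were over 1 TPM in 1 library each and were not matched.

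Markers of leukocytes were read beside the first set. The 13 neutrophil markers summed to 81.4 to 214 TPM in OST Sema3E, against 11.8 to 53.9 TPM in OST IgG, without overlap. Hdc, which is also on the mast cell list, held most of the OST IgG sums (37.7, 33.0 and 6.84 TPM). The neutrophil markers summed to 131 to 516 TPM in GC Sema3E, against 67.7, 106 and 775 TPM in GC IgG, where the last is replicate 1. In OST, 10 of 11 neutrophil markers tested had positive log2 differences, against 28.9% of all genes, and 6 passed an unadjusted p under 0.05, all higher, against 1.68% of all genes. Of the 11, 5 (Csf3r, Cxcr2, Mmp8, Mmp9 and Ngp) passed the filter through Sema3E libraries alone, so a high level after Sema3E was a condition of their being tested. The 4 with the smallest p were Cxcr2 (1.27, SE 0.27), S100a9 (2.88, SE 0.64), Csf3r (0.99, SE 0.24) and S100a8 (3.47, SE 0.95), each with an adjusted p of 0.332. The 17 macrophage and monocyte markers summed to 315 to 480 TPM in OST Sema3E, against 184 to 304 TPM in OST IgG, and 13 of 15 tested had positive differences, 2 at an unadjusted p under 0.05 (Tyrobp and Ccr2). Their median was 0.61, and 0.38 without OST IgG replicate 3. Of the 15, Ly6c2 passed the filter through Sema3E libraries alone.

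The other leukocyte lists had other values. The 8 mast cell markers summed to 32.2 to 36.8 TPM in OST Sema3E, against 23.5 to 40.3 TPM in OST IgG. Except in OST IgG replicate 3, most of each sum was Hdc, so these sums are not specific to mast cells. Hdc was at 29.7, 33.3 and 35.6 TPM in OST Sema3E, against 37.7, 33.0 and 6.84 TPM in OST IgG. The median log2 difference of the list was -0.65 in OST (1 of 4 tested positive, against 28.9% of all genes). In GCs it was -0.59 (0 of 5 positive, against 65% of all genes), and 0.54 over 3 genes without GC IgG replicate 1. Mcpt4 and Cma1 in OST, and Mcpt4 and Tpsab1 in GCs, passed the filter through IgG libraries alone. A high level after IgG was a condition of their being tested, so the mast cell counts only describe them. The 11 lymphocyte markers summed to 7.13 to 12.6 TPM in OST Sema3E, against 5.04 to 9.41 TPM in OST IgG. Their median was 0.15 in OST and -0.19 in GCs, and both signs turned without the libraries that stood apart, to -0.14 in OST and 0.35 in GCs.

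No measured marker on the neutrophil list or the macrophage and monocyte list was at 0 in all 3 libraries of any group. On the mast cell list, Fcer1a was at 0 in all 3 libraries of both OST groups, and Tpsab1 in those of OST Sema3E. Ly6g, which defines neutrophils, was at 0.239, 0 and 0.142 TPM in OST Sema3E, against 0, 0.052 and 0 TPM in OST IgG. Ptprc, the common leukocyte antigen, was under 1 TPM in every OST library and 7.56 TPM in GC IgG replicate 1. Without OST IgG replicate 3, the median log2 difference of neutrophil markers in OST was 0.81, against 0.89 with it. In GCs the same median was 0.44, and 1.42 without GC IgG replicate 1. The macrophage and monocyte markers had a median of -0.16 in GCs (3 of 17 tested positive, against 65% of all genes). Of the 17, Mrc1 and Cx3cr1 passed the filter through IgG libraries alone. Without GC IgG replicate 1 the median of that list was 0.89 (15 of 15 tested positive, against 45.2% of all genes). The part of these cells in the differences of Il1b, Il1rn, Tnf and Osm was not tested.

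Markers of nonleukocyte cells also differed between the OST libraries. The 8 markers of ovarian surface epithelium summed to 282 to 331 TPM in OST Sema3E, against 192 to 244 TPM in OST IgG, without overlap. Of 7 tested, 4 keratin genes (Krt7, Krt8, Krt18 and Krt19) were higher at an unadjusted p under 0.05, against 1.68% of all genes. By the same rule 1 (Upk3b) was lower, against 13.2% of all genes. Each had an adjusted p of 0.332 by limma, and the median of the 7 was 0.74, or 0.59 without OST IgG replicate 3. Krt18 was at 88.5, 69.6 and 93.4 TPM in OST Sema3E, against 48.5, 43.4 and 39.2 TPM in OST IgG. Cumulus and ovulatory markers had a median of 1.43 (8 of 8 positive) and theca and steroidogenic markers one of 0.85 (6 of 6 positive), whereas 28.9% of all genes were positive. These medians were 0.039 and -0.100 without OST IgG replicate 3. The part of these cells in the differences of the 10 genes was not tested either.

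**Figure D4:**
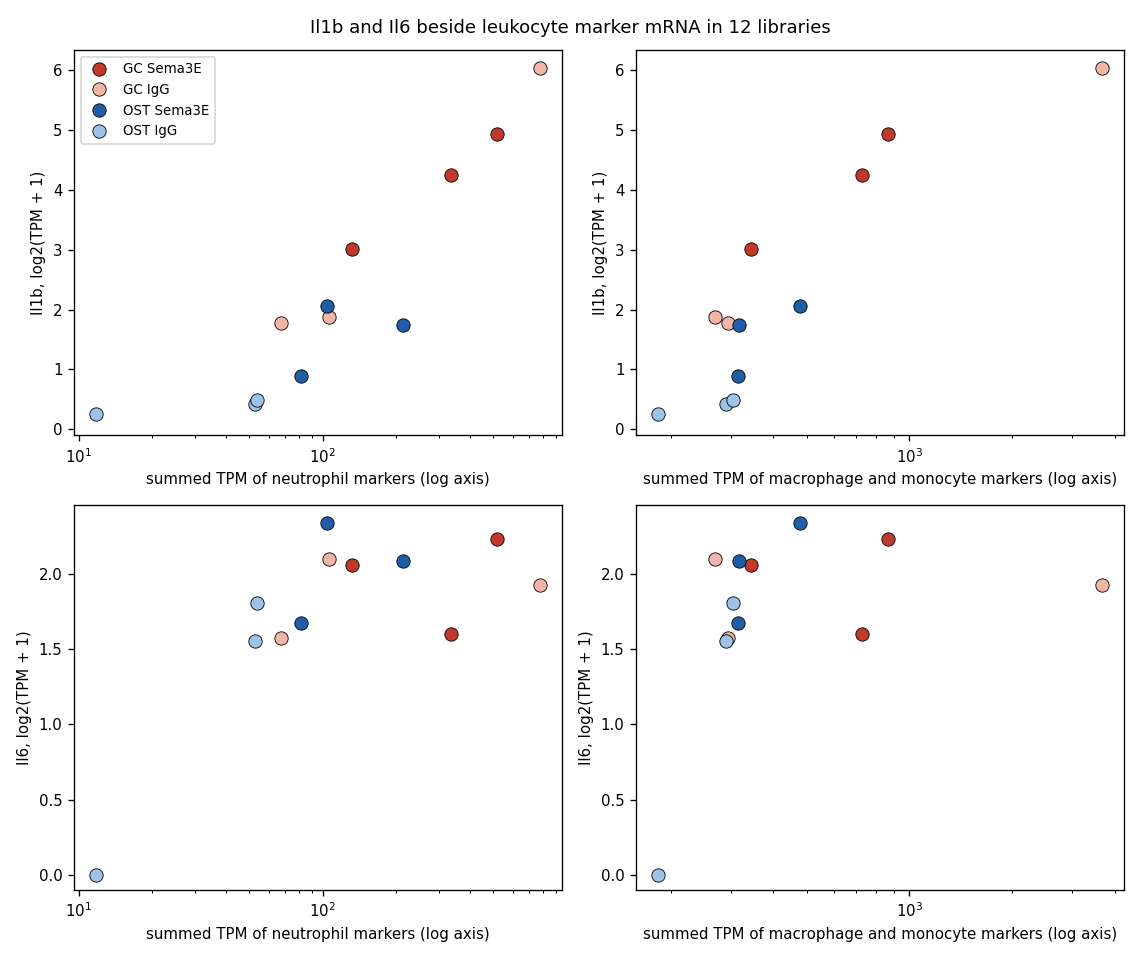
Il1b (top) and Il6 (bottom), as log2(TPM + 1), against the summed TPM of neutrophil markers (left) and of macrophage and monocyte markers (right) on log axes, with 1 point for each of the 12 libraries, coloured by group. Il1b is highest where both sums are highest, in GC IgG replicate 1 (775 and 3652 TPM), whereas Il6 is at a like level there and in libraries with lower sums.

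Receptors for the cytokines were measured in both tissues. Il6st (gp130) was at 36.2, 48.0 and 49.6 TPM in OST Sema3E, against 52.6, 63.1 and 52.1 TPM in OST IgG, and Il11ra1, the partner for interleukin-11, was at 6.10, 6.07 and 5.59 TPM, against 6.85, 7.06 and 7.52 TPM. For both, the Sema3E libraries were below the IgG libraries, with log2 differences of -0.33 (SE 0.16, unadjusted p 0.0784) and -0.23 (SE 0.11, unadjusted p 0.0754), close to the median of all genes in OST. Such separation was common there, as 33.5% of all genes had groups that did not overlap, and 3.67% did so with Sema3E higher. Lifr was at -0.32 (SE 0.13, unadjusted p 0.0401, adjusted p 0.333) in OST and at 0.33 (SE 0.13, unadjusted p 0.0382, adjusted p 0.966) in GCs. Of 7 receptors tested in each tissue, 0 passed an adjusted p under 0.05 by limma, and Lifr was the 1 that passed an unadjusted p under 0.05 in each, where 14.9% of all genes did in OST and 5.11% in GCs.

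Known targets and feedback inhibitors of these cytokines were read from a list of 20 genes, all of which were tested in OST. Of these, 15 had positive log2 differences in OST, against 28.9% of all genes, and 0 passed an adjusted p under 0.05 by limma. At an unadjusted p under 0.05, 4 passed, all higher, against 1.68% of all genes. Cxcl2, a neutrophil chemokine, was at 5.24, 1.89 and 7.33 TPM in OST Sema3E, against 0.394, 0.097 and 0 TPM in OST IgG (2.21, SE 0.41, unadjusted p 0.00141, adjusted p 0.332). It was the single gene on the list that passed the filter through Sema3E libraries alone. Socs3, the feedback inhibitor of gp130 signaling, was at 99.8, 98.3 and 133 TPM, against 69.4, 73.2 and 39.2 TPM (0.89, SE 0.27, unadjusted p 0.0144). Neither gene overlapped between groups, and the other 2 were Ccl2 (1.73, SE 0.57), a monocyte chemokine, and Hp (1.01, SE 0.36), which encodes haptoglobin. Without OST IgG replicate 3 the differences were 2.10 for Cxcl2, 0.61 for Socs3, 1.13 for Ccl2 and 0.74 for Hp, and Hp no longer passed an unadjusted p under 0.05.

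The median of the 20 targets in OST was 0.50, against -0.18 over all genes, and 0.03 without OST IgG replicate 3. In that fit 12 of 20 were positive, against 24.1% of all genes. At an unadjusted p under 0.05, 4 were higher and 2 lower, against 3.32% and 16.8% of all genes. In GCs, 7 of 20 targets were positive, against 65% of all genes, with a median of -0.06. Without GC IgG replicate 1, 17 of 20 were positive, against 45.2% of all genes, with a median of 0.22. Intracellular signaling genes of the interleukin-1 and TNF receptors had a median of -0.08 in OST (6 of 15 positive, against 28.9% of all genes). In GCs their median was -0.03 (6 of 16 positive, against 65% of all genes). Of the 16, Irak3 passed the filter through IgG libraries alone. In OST 1 of 15 was positive without OST IgG replicate 3, against 24.1% of all genes. In OST, Traf6 (-0.52, SE 0.16) and Map3k7 (-0.34, SE 0.14), both needed for interleukin-1 signaling to NF-kB, passed an unadjusted p under 0.05, with adjusted p of 0.332 and 0.333. These were 2 of 15 genes, close to the 13.2% of all genes that were lower by this rule, and Map3k7 no longer passed without OST IgG replicate 3. Genes of gp130 signaling had a median of -0.19 in OST, where Jak1 (-0.55, SE 0.16, unadjusted p 0.0150, adjusted p 0.332 by limma) was lowest. Jak1 was the 1 of 6 that passed an unadjusted p under 0.05, against 13.2% of all genes that were lower by this rule.

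Genes for the processing and release of interleukin-1 and TNF, such as Casp1, Gsdmd and Adam17, had medians of 0.14 in OST (6 of 7 positive) and -0.19 in GCs (3 of 9 positive). Of all genes, 28.9% were positive in OST and 65% in GCs. In GCs, Casp4 and Nlrp3 passed the filter through IgG libraries alone, so a high level after IgG was a condition of their being tested. On this list 0 passed an unadjusted p under 0.05 in either tissue. Both signs turned without the libraries that stood apart, to -0.077 in OST (3 of 7 positive, against 24.1% of all genes) and 0.076 in GCs (4 of 7 positive, against 45.2%). Of the other members of the interleukin-1 family, Il33, an alarmin of stroma and epithelium, was at 6.42, 4.99 and 6.12 TPM in OST Sema3E, against 3.14, 4.84 and 0.615 TPM in OST IgG (1.01, SE 0.46, unadjusted p 0.0715, and 0.47, SE 0.19, without OST IgG replicate 3). The groups did not overlap, though 4.99 TPM after Sema3E and 4.84 TPM after IgG were close.

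**Figure D5:**
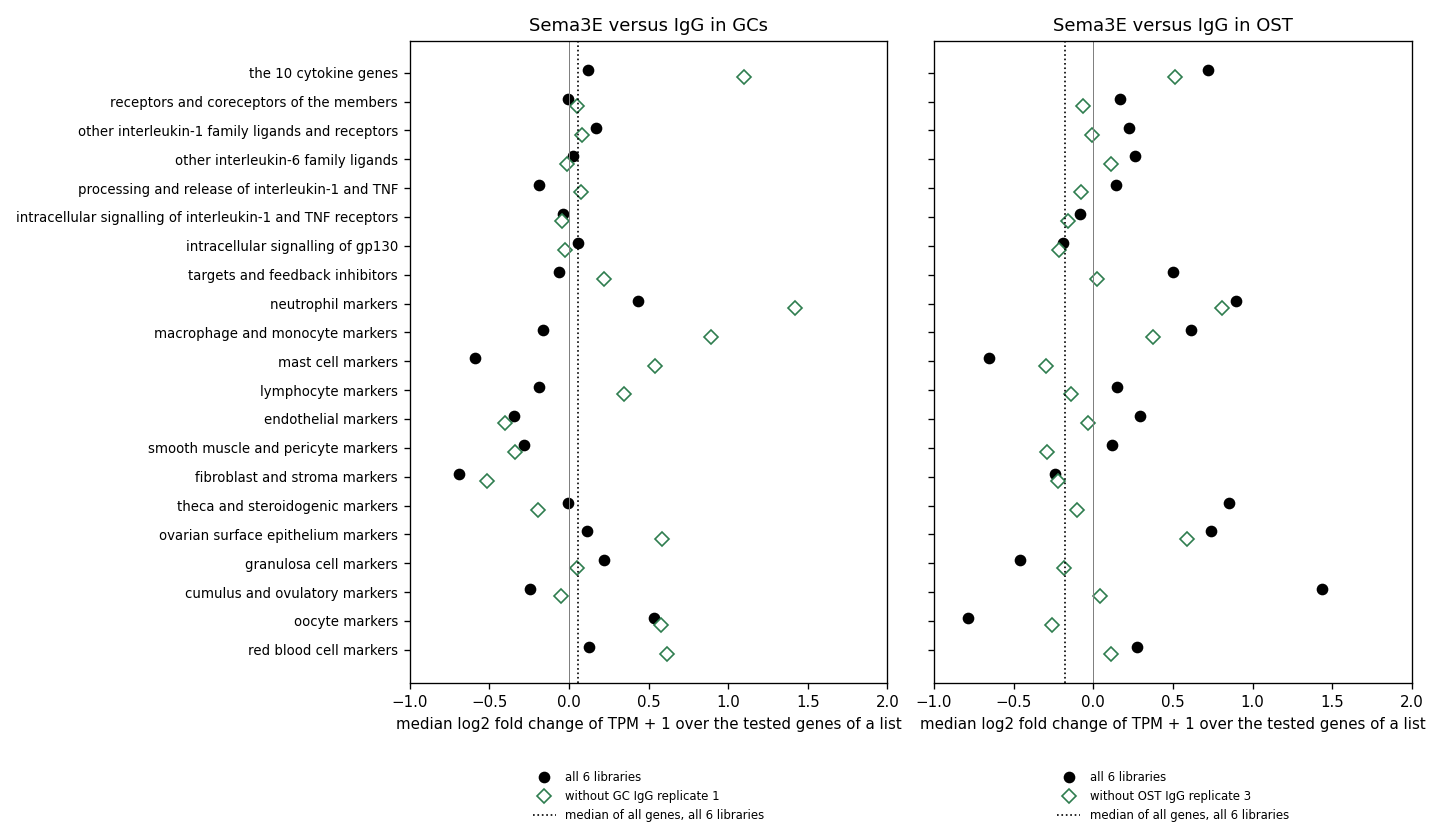
Median log2 fold change of TPM + 1, Sema3E over IgG, over the tested genes of each list in GCs (left) and OST (right), for all 6 libraries of a tissue (black) and without the IgG library that stood apart (green). Dotted lines give the median of all genes. In OST the cumulus and ovulatory (1.43), neutrophil (0.89), theca and steroidogenic (0.85) and ovarian surface epithelium (0.74) markers lie to the right. So do the 10 cytokine genes (0.72, over the 8 tested). Of these lists, the cumulus and theca medians are near 0 without OST IgG replicate 3. In GCs the medians of the neutrophil list and the macrophage and monocyte list are higher without GC IgG replicate 1.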

How the data were processed

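Bulk RNA-seq of 12 libraries was used, grouped by the labels. The authors deposited TPM per gene, and per the labels their processing used HISAT2 (version 2.0.5), featureCounts (version 1.5.0-p3) and edgeR (version 1.3.3) on GRCm38. Coordinates in the deposited matrix differ from GRCm38, and gene identifiers were looked up in GENCODE M21 for positions. TPM hold no depth, so no counting error is given and depth per library is unknown. The labels name no sequencing batch.

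Each comparison kept genes whose TPM exceeded 1 in any of its libraries. They were tested on log2(TPM + 1) by limma (version 3.58.1, R 4.3.3), using its trend and robust options, and Benjamini-Hochberg adjustment ran over all genes kept. DESeq2, used by the study, needs counts and was not run. The study's cutoffs were an unadjusted p under 0.05 and a fold over 2. The interaction was fitted over all 12 libraries. Scripts were tested on simulated data.

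All 10 genes are named, together with at most 4 genes of each list by smallest p and 3 neighbours by Pearson r, of which 1 is not reported here. Where single genes beyond these (Il6st, Il11ra1, Il33, Ly6g) are given values, they were picked for their role. Mmp8, Mmp9, Ngp, Krt7 and Hdc were named after their values were seen. So were Mcpt4, Cma1, Tpsab1, Fcer1a, Casp4, Nlrp3, Irak3, Ly6c2, Mrc1 and Cx3cr1. The genes and lists were chosen with earlier results of these data known. The same replicate number in different groups was not stated to mark the same mouse, so libraries were not paired, and p-values measure the spread between these ovaries. Alternatives were another pseudocount (0.1), no filter, a mean TPM over 1, scaling by median ratios, removal of globin and mitochondrial genes, no robust estimation, a replicate block, a fit over 12 libraries, fold as a ratio of means, and leaving out each library. Leaving out GC IgG replicate 1 and OST IgG replicate 3 together was chosen after seeing the data. So was giving values without each of them beside the results.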

Additional observations from a re-analysis of the deposited data

How the results depend on the processing

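TPM carry no depth, so the noise of genes near or below 1 TPM cannot be estimated, and 3 libraries a group limit every test. Of 663 values of single genes under the alternatives, 598 kept their direction and their side of the adjusted threshold, 37 reversed, 17 lost a call and 11 gained one, and the causes were not tested. For Sema3E against IgG, 0 of the genes passed an adjusted p under 0.05 by limma in either tissue under every alternative run, the replicate block included. The labels do not say whether a replicate number marks 1 mouse, so whether the numbers pair libraries is unknown. Correlations of deviations between same-numbered libraries ran between -0.0728 and 0.341 in GCs and between -0.175 and 0.0579 in OST, and in each tissue 1 of 3 numbers correlated best with its own. With the replicate block, Il11 in OST stayed at 1.60 (adjusted p 0.502 by limma) and 245 of 15128 genes were called in GCs, against 10 without it. Without OST IgG replicate 3, 11 of 15452 genes were called in OST, against 0 with it.

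The cutoffs of the study (unadjusted p under 0.05 and a fold over 2) were passed in GCs by 0 genes, and by 0 to 2 with a library left out, the 2 without GC IgG replicate 1. In OST they were passed by 2 genes, by 1 in the fit over all 12 libraries, and by 1 to 3 with a library left out. For OST against GCs after Sema3E, 5 genes passed an adjusted p under 0.05, 3 did with no filter on low TPM, 2 in the fit over all 12 libraries and 3 to 5 with a library left out. Of these genes 3 passed the study's cutoffs, 5 did with a pseudocount of 0.1, 5 without globin and mitochondrial genes, 5 with fold taken from group means of TPM, and 3 to 5 with a library left out. For OST against GCs after IgG, 0 genes passed an adjusted p under 0.05, 1 did in the fit over all 12 libraries, 0 to 1 with a library left out, and 2 without GC IgG replicate 1 and OST IgG replicate 3 together. There 1 passed the study's cutoffs, 2 did with a pseudocount of 0.1, 0 with no filter, 2 with scaling by median ratios, 2 without globin and mitochondrial genes, 2 in the fit over all 12 libraries, and 0 to 2 with a library left out.

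The sign of a log2 difference turned in these cases, of genes that did not pass. With a library left out, values in GCs ran between -0.45 and 1.58 for Il1rn, -0.047 and 0.28 for Il6, -0.57 and 1.10 for Tnf, -0.50 and 1.23 for Osm, and -0.046 and 0.31 for Il1r2, and in OST between -0.21 and 0.36 for Il1r1. OST against GCs after Sema3E gave -0.11 to 0.25 for Il6. The difference between the tissues' Sema3E effects ran between -1.07 and 1.07 for Il1b, -0.75 and 1.28 for Il1rn, -0.66 and 1.002 for Tnf, -0.63 and 1.10 for Osm, -0.079 and 0.42 for Lif, and -0.15 and 0.20 for Il1r2. Without both IgG libraries that stood apart, it was -1.13 for Il1b, -0.58 for Il1rn, -0.70 for Tnf, -0.61 for Osm and -0.048 for Lif. Scaling by median ratios gave -0.071 for Tnf in GCs and 0.055 for Il1r1 in the difference between tissues, and removing globin and mitochondrial genes gave -0.15 for Il6 in OST against GCs after Sema3E. The pseudocount of 0.1 moved the median of the 8 genes tested in OST to 1.59.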
